A study of Homo sapiens with 18 samples.

Results

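Genes that define cell types outside the breast were examined for FOXA1 and TLE3 binding in luminal breast cancer cell lines. The set holds 34 genes of 19970 protein-coding genes: 5 liver, 3 fat, 4 T cell, 2 B cell, 4 leukocyte and myeloid, 4 endothelial, 1 fibroblast, 5 muscle and heart, 4 neural and 2 islet genes. They were chosen by lineage, with earlier results of these data known, and all 34 are accounted for. ChIP-seq, which sequences the DNA that an antibody pulls down with its target, was done for both factors in the lines T47D, SKBR3 and MDA-MB-453, with 2 libraries per line and factor, so 12 peak lists. T47D expresses the estrogen receptor, whereas MDA-MB-453 and SKBR3 lack it. FOXA1 was precipitated with a Diagenode antibody from formaldehyde-fixed cells, and TLE3 with a Proteintech antibody from cells that received an additional crosslinker before formaldehyde, so a difference between the factors and a difference between these preparations cannot be told apart. Each line is a single cancer cell line, no treatment or genotype divides the samples, and the 6 input samples were not used here.

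FOXA1 is a forkhead pioneer factor that can bind DNA wrapped in nucleosomes, and it works with steroid hormone receptors in luminal breast cells. Its family was found as liver factors binding the promoters of secreted liver proteins such as transthyretin (TTR) and alpha-1-antitrypsin (SERPINA1), and the same family works in endoderm-derived tissues, pancreatic islets included. TLE3 is a Groucho-family corepressor with no DNA-binding domain of its own, which is brought to chromatin by transcription factors.

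Overlapping peaks of a line and factor were merged, a merged interval found in both replicates is called a site, and a site counts for a gene when its centre lies in the gene body or within 50 kb of it. FOXA1 lists held 107598 to 188029 peaks and TLE3 lists 21149 to 94363. The longest TLE3 list is the library labelled SKBR3 TLE3 replicate 2, which stood apart from replicate 1 (21149 peaks): of all its peaks 21.7% overlapped a SKBR3 FOXA1 site, against 93.5% for replicate 1. The 2 SKBR3 TLE3 replicates are therefore given separately, and results that use replicate 2 are given without it too. The lists hold no read counts, so the depth is unknown. Depth and binding therefore cannot be told apart where one library has more peaks near a gene. A list of 16 luminal breast genes (keratins, GATA3, ESR1, SPDEF and others) was set beside them, and all 16 had a FOXA1 site within 10 kb in each line. Most other protein-coding genes had one too: 82.4% for MDA-MB-453, 80.4% for T47D and 70.6% for SKBR3. The luminal list was also chosen with earlier results of these data known, so the count cannot verify the tissue.

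The starts of the lineage genes are shown first, because the promoters of liver genes are the classic place of FOXA binding. Of the 34 genes, 16 had entries in the RefSeq promoter table (GRCh38.p14), with 20 starts. The windows ran from 250 bases before to 50 bases after each start, and were searched on both strands for 5 forkhead words, none of which contains another: the word TGTTTAC, the word TGTTTGC, the word TATTTAC, the word TATTGAC and the word TGTTGAC. A word was found in 6 of the 20 windows (30.0%), against 10.4% of 22131 windows of protein-coding starts. A FOXA1 site of at least 1 line lay over 7 windows of 6 genes, and 1 window, that of ALB, had both. The 250 bases before the start are given 5′ to 3′ on the gene's strand, in lower case, with a word in capitals, for the start with both (ALB), the 2 SERPINA1 starts, of which one had sites and the other a word, the CD8A start with FOXA1 in every line, and GCG, which had a word and no site.
ALB, chr4:73404037-73404286, plus strand: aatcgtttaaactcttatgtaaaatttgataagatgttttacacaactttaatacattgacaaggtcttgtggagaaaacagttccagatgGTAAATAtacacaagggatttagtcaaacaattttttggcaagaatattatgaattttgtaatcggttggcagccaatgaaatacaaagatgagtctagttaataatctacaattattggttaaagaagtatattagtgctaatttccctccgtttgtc
SERPINA1 upstream start, chr14:94390636-94390885, minus strand: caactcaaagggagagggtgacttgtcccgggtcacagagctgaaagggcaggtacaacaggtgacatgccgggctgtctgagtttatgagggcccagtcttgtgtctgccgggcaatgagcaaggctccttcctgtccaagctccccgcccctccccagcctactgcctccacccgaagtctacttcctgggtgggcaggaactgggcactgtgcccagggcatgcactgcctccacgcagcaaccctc
SERPINA1 downstream start, chr14:94388603-94388852, minus strand: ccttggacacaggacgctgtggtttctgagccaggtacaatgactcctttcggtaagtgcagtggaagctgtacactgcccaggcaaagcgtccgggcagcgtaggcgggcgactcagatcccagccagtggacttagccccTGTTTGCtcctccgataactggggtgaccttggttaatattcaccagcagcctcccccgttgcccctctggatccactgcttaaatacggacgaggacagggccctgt
CD8A, chr2:86808043-86808292, minus strand: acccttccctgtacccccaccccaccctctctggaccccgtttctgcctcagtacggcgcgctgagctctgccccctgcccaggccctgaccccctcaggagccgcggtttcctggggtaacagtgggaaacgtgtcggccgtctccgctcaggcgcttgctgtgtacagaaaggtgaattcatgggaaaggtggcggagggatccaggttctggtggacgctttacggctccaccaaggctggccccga
GCG, chr2:162152248-162152497, minus strand: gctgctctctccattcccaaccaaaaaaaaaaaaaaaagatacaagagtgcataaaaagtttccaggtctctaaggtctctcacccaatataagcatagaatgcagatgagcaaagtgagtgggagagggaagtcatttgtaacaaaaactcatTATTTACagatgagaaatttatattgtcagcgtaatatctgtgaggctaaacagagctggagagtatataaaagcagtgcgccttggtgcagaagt

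The ALB window held GTAAATA, the reverse complement of TATTTAC, with its first base 159 bases before the start, and it lay under a FOXA1 site in MDA-MB-453 only. The 2 MDA-MB-453 FOXA1 libraries had peaks there at the 75.8th and 67.4th percentile of their lists by the authors' own peak score, which is used throughout only to rank peaks within a list. The upstream SERPINA1 start held no word but lay under FOXA1 and TLE3 sites in T47D (FOXA1 87.8 and 77.4, TLE3 90.8 and 95.8 as percentiles) and under a weak peak of SKBR3 TLE3 replicate 1 (6.5). The downstream SERPINA1 start, with TGTTTGC from 108 bases before it, had no site in any list. The CD8A window held no word and had FOXA1 sites in all 3 lines, with percentiles from 68.2 to 91.5, and a peak of SKBR3 TLE3 replicate 2. GCG carried TATTTAC from 96 bases before its start and had no peak there in any of the 12 lists. Sites over the remaining windows lay at a second CD8A start next to the first (all 3 lines), CD14 (SKBR3 and T47D), ADIPOQ (T47D) and SYP (T47D, percentiles 46.0 and 4.8). The 2 CD8A windows lay under the same FOXA1 site in each line, so that site counts for both. T47D FOXA1 replicate 2 had no peak over the ADIPOQ window, and SKBR3 FOXA1 replicate 1 none over the second CD8A window. In both cases the peak of the other replicate reached the window, at the 96.2nd percentile for ADIPOQ and the 76.4th for CD8A. Over all protein-coding starts, the share with a FOXA1 site was 32.8% for MDA-MB-453, 27.8% for T47D and 14.5% for SKBR3, against 3, 6 and 3 of the 20 windows. The genes without an entry were APOA1, APOB, TTR, CD3E, CD4, MS4A1, SPI1, LYZ, PECAM1, CDH5, VWF, DCN, MYOD1, MYH7, DES, NKX2-5, GFAP and OLIG2.

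FOXA1 sites lay near nearly every lineage gene, as they did near nearly every gene. Within 50 kb, 33 of 34 lineage genes had a FOXA1 site in MDA-MB-453 (95.1% of the 19936 other protein-coding genes), 31 in SKBR3 (89.8%) and 34 in T47D (95.0%). The median number of sites per gene was 6, 5 and 4, against 7, 4 and 6 for the other genes. Within 10 kb the counts were 27 (82.4%), 25 (70.6%) and 28 (80.4%), and within the gene body 17 (60.4%), 16 (49.5%) and 17 (57.4%). The exceptions at 50 kb were OLIG2 in MDA-MB-453, and OLIG2, MS4A1 and NKX2-5 in SKBR3. At 10 kb GCG alone had no FOXA1 site in any line, against 11.2% of the other genes. These shares lie close to the background. The lineage genes were shorter than the rest, with a median length of 14.4 against 24.2 kb, so their windows were smaller. Per 100 kb of window the medians were 4.27, 3.71 and 3.31 FOXA1 sites, against 4.79, 3.06 and 4.06 for the other genes.

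TLE3 sites were fewer and more uneven. Within 50 kb, 15 of the 34 had a TLE3 site in MDA-MB-453 (55.3% of other genes) and 26 in T47D (74.7%). In SKBR3 the count was 23 in replicate 1 (57.3%), 34 in replicate 2 (96.5%) and 12 for sites held by both (35.3%). Within 10 kb the counts were 8 in MDA-MB-453 (32.3%), 12 in SKBR3 replicate 1 (34.3%), 30 in replicate 2 (88.4%), 6 in both (19.4%) and 14 in T47D (50.3%). Within the gene body they were 5 in MDA-MB-453 (23.8%), 6 in SKBR3 replicate 1 (23.8%), 22 in replicate 2 (70.8%), 4 in both (12.7%) and 9 in T47D (33.0%). The share lay below that of the other genes in MDA-MB-453 at each of the 3 windows, and that difference was not tested. Over MDA-MB-453, SKBR3 replicate 1 and T47D, 10 genes had a TLE3 site within 50 kb in all 3 lines (29.4%, against 39.7% of other genes). TTR, DCN, MYOD1 and NKX2-5 had none in any of the 3 (4 of 34, 11.8%, against 16.2%). Of the 16 luminal breast genes, 16 had a TLE3 site within 50 kb in MDA-MB-453, 14 in SKBR3 replicate 1, 16 in SKBR3 replicate 2 and 16 in T47D. Their median numbers of FOXA1 sites were 17.5 for T47D, 16.5 for MDA-MB-453 and 13.5 for SKBR3. For a further 49 genes of the same lineages, FOXA1 sites were near 49, 46 and 48 genes and TLE3 sites near 32, 31 and 37 (MDA-MB-453, SKBR3 with replicate 1 for TLE3, and T47D). Among these, SYT1, a synaptic vesicle calcium sensor, had the most FOXA1 sites (51, 30 and 34) and MPO, a neutrophil enzyme, the fewest (1, 0 and 0).

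**Figure D1:**
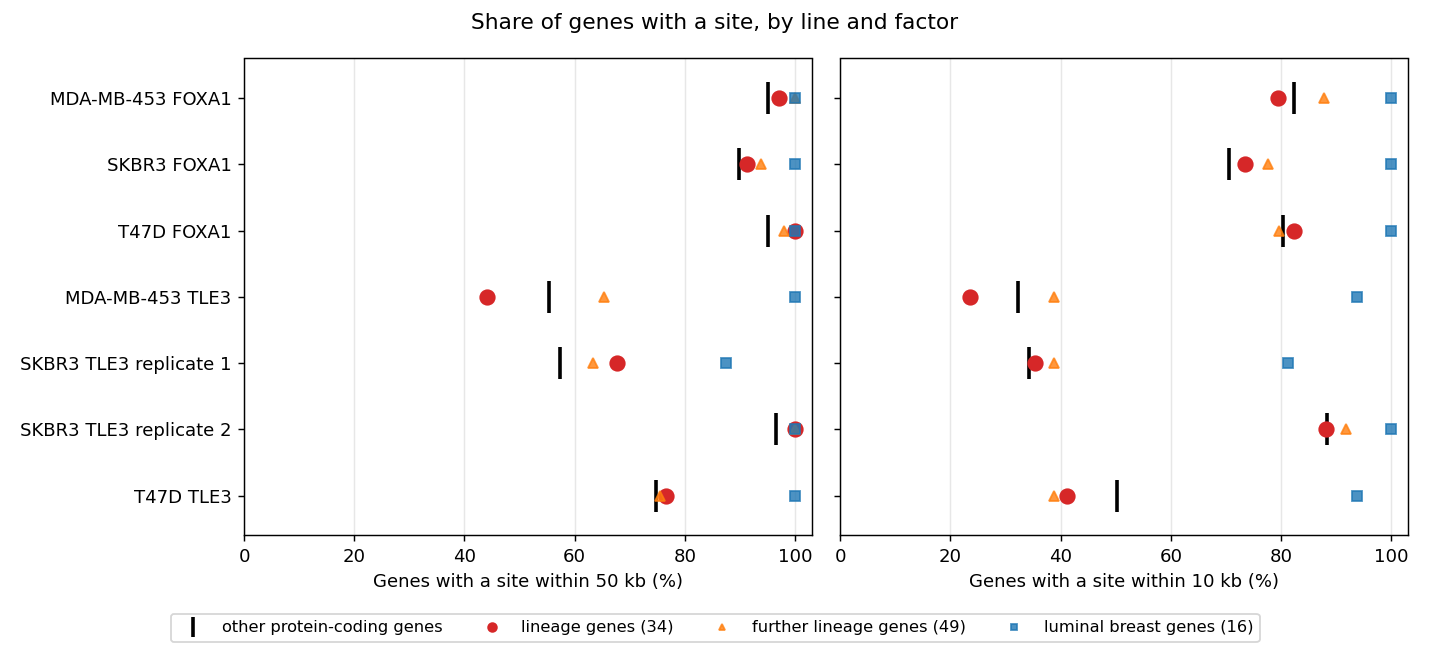
Percentage of genes with a site within 50 kb (left) and 10 kb (right) for each line and factor. Red points are the 34 lineage genes, triangles the 49 further lineage genes, squares the 16 luminal breast genes and black bars the other protein-coding genes. Red points lie near the black bars, while squares lie at or above 81.2%.

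The number of FOXA1 peaks near each gene was then compared between the lines with limma, on log2 of the peaks within 50 kb scaled to the length of each list (0.5 peaks added), with Benjamini-Hochberg adjustment over all genes tested. Each line had 2 libraries, which the labels call biological replicates without saying how they were grown, so the tests measure the spread between these libraries. The F test passed an adjusted p of 0.05 for 22 of 34 lineage genes, and for 56.6% of the 19171 genes tested. Differences between the lines were thus the rule across the genome. T47D was above MDA-MB-453 for 5 lineage genes (14.3% of genes tested) and below it for 6 (11.4%). T47D was above SKBR3 for 9 (20.7%) and below it for 10 (20.0%). MDA-MB-453 was above SKBR3 for 6 (20.9%) and below it for 10 (23.0%). These contrast counts include CDH5 and CD3E, which did not pass the F test (0.0611 and 0.0592). CDH5 in T47D lay -0.74 ± 0.24 from SKBR3 (adjusted p of the contrast 0.0394). CD3E in MDA-MB-453 lay -0.63 ± 0.2 from SKBR3 (0.0339). The median log2 difference over the 34 was 0.07, -0.27 and -0.2 for T47D against MDA-MB-453, T47D against SKBR3 and MDA-MB-453 against SKBR3, against 0.05, 0.0 and -0.02 over all genes tested. SERPINA1, LEP and ACTN2 kept their call under all 12 alternative settings, and NKX2-5 and OLIG2 under the 10 in which they were tested. In the remaining settings NKX2-5 and OLIG2 had a mean under 1 peak, so nothing is known of their calls there. Neither gene had a peak in SKBR3, and OLIG2 had none in MDA-MB-453, so their fitted sizes depend on the 0.5 peaks added. The other 17 genes lost their call under at least 1 setting. The count was 9 lineage genes with a 10 kb window, 12 without MDA-MB-453 replicate 1 and 11 without MDA-MB-453 replicate 2. Values below are log2 differences ± SE with the adjusted p of the contrast, unless the F test is named. Peak numbers are per library, replicate 1 then replicate 2.

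**Figure D2:**
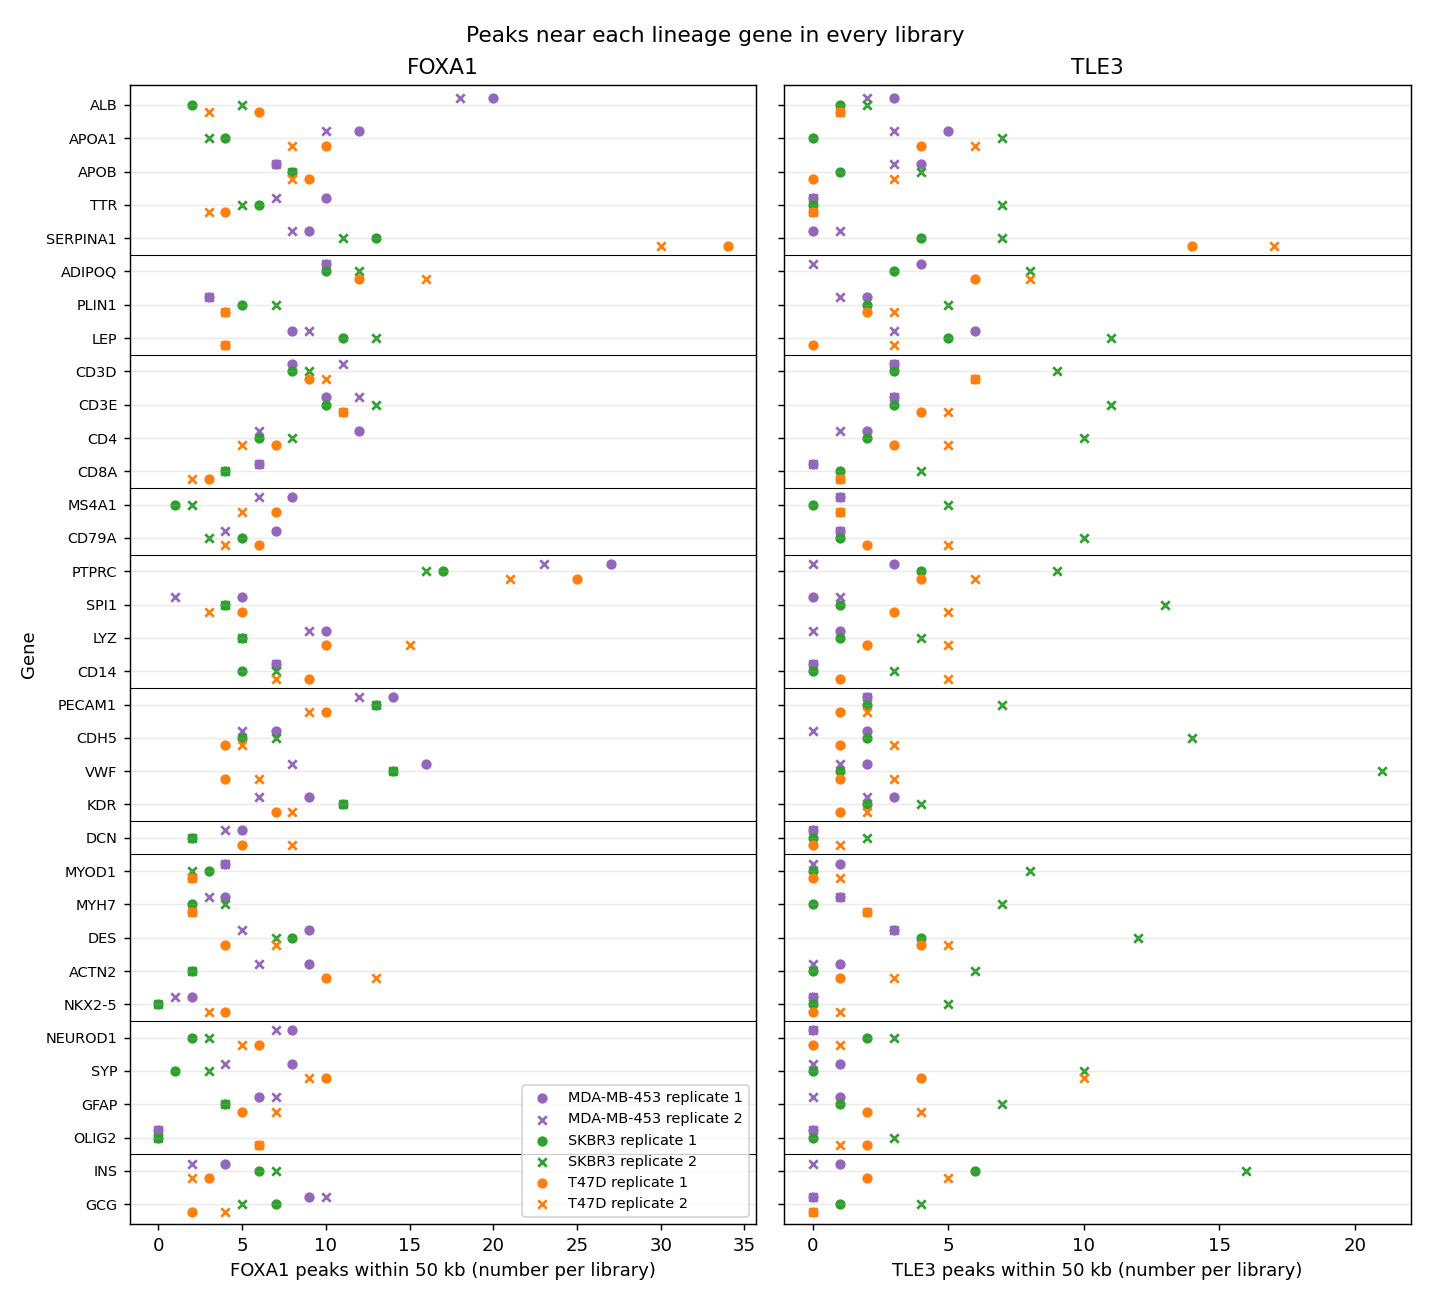
Number of FOXA1 peaks (left) and TLE3 peaks (right) within 50 kb of each lineage gene in every library, coloured by line, with circles for replicate 1 and crosses for replicate 2. Horizontal lines divide the lineages. SERPINA1 in T47D (34 and 30 FOXA1 peaks) lies farthest right among FOXA1 values, and VWF in SKBR3 replicate 2 (21) among TLE3 values.

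All 5 liver genes passed the F test (56.6% of all genes tested), in different directions. ALB, the main plasma protein (gene 213, chr4:73404287-73421482), had 20 and 18 FOXA1 peaks in MDA-MB-453, 2 and 5 in SKBR3 and 6 and 3 in T47D. The MDA-MB-453 libraries lay above all others without overlap, and 14 of the 17 MDA-MB-453 sites overlapped no site of another line. The difference was 1.85 ± 0.39 against SKBR3 (0.00606) and T47D lay -1.84 ± 0.39 from MDA-MB-453 (0.0121). The call was lost without either MDA-MB-453 library (F test adjusted p of 0.0884 without replicate 1 and 0.12 without replicate 2). The highest-scoring site of the window, at chr4:73450044-73451410 (98.1st percentile), lay 29245 bp from ALB and nearest to AFP, the fetal counterpart of albumin. TLE3 was sparse there, with 2 sites near ALB in MDA-MB-453, 1 in SKBR3 replicate 1 and 1 in T47D, and none within 10 kb.

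SERPINA1, the circulating inhibitor of neutrophil elastase (gene 5265, chr14:94376747-94390635), went the other way. FOXA1 peaks numbered 9 and 8 in MDA-MB-453, 13 and 11 in SKBR3 and 34 and 30 in T47D. The T47D libraries were higher by 2.03 ± 0.16 than MDA-MB-453 (0.000268) and by 0.99 ± 0.16 than SKBR3 (0.00178). No other protein-coding gene lay in the window. Of the 29 T47D sites, 17 overlapped no FOXA1 site of the other lines and 12 overlapped a T47D TLE3 site. Only 8 of the 29 lay within 10 kb of SERPINA1. The highest-scoring T47D sites of the window lay farther out and were nearest to SERPINA6, a gene beyond the window. The FOXA1 site (99.6th percentile) lay 41710 bp from SERPINA1 and the TLE3 site (95.6th) 41757 bp. TLE3 peaks numbered 0 and 1 in MDA-MB-453, 4 and 7 in SKBR3 and 14 and 17 in T47D. The T47D TLE3 site over the upstream start shown above was one of 3 within 10 kb, and another lay 5420 bp outside the gene at chr14:94395713-94396398 (93.1st percentile).

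The remaining liver genes differed less. APOA1, the main protein of high-density lipoprotein, had 12 and 10, 4 and 3, and 10 and 8 FOXA1 peaks in MDA-MB-453, SKBR3 and T47D. SKBR3 was the low line, with MDA-MB-453 higher by 0.98 ± 0.23 (0.00971) and T47D by 0.89 ± 0.23 (0.0161). The F test did not pass without either MDA-MB-453 library (0.0636 and 0.0742) or without SKBR3 replicate 2 (0.0684). TTR, the thyroxine and retinol carrier, had 10 and 7, 6 and 5, and 4 and 3 peaks, and T47D lay -0.97 ± 0.25 from MDA-MB-453 (0.0244), a call lost without either MDA-MB-453 library or T47D replicate 2 (F test 0.0676, 0.0632 and 0.0927). APOB, the protein of low-density lipoprotein, had nearly equal numbers (7 and 7, 8 and 8, 9 and 8). Its scaled difference between MDA-MB-453 and SKBR3 (-0.74 ± 0.19, 0.0145) became -0.18 without scaling to list length (F test 0.257). It had a TLE3 site within 10 kb in MDA-MB-453, 3153 bp outside the gene, and another in SKBR3 replicate 1 inside the gene body.

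All 3 fat genes had FOXA1 sites within 10 kb in every line (64.6% of other genes). With replicate 1 for SKBR3, all 3 had a TLE3 site within 10 kb in at least 1 line (60.1% of other genes). Where a SKBR3 TLE3 site had to be held by both replicates, ADIPOQ had TLE3 sites within 10 kb in T47D only. LEP, which encodes the hormone leptin (gene 3952, chr7:128241278-128257629), had 8 and 9 FOXA1 peaks in MDA-MB-453, 11 and 13 in SKBR3 and 4 and 4 in T47D. The 3 lines did not overlap: T47D lay -1.85 ± 0.21 from SKBR3 (0.000405) and -0.81 ± 0.21 from MDA-MB-453 (0.0239). TLE3 had 6 and 3 peaks in MDA-MB-453, 5 and 11 in SKBR3 and 0 and 3 in T47D. A TLE3 site lay 1708 bp outside LEP in MDA-MB-453 (chr7:128259138-128259536, 60.2nd percentile), and SKBR3 replicate 1 had one at the same place (chr7:128259180-128259586, 77.7th). T47D had no LEP TLE3 site.

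ADIPOQ, the adiponectin gene (gene 9370, chr3:186842710-186858463), had 10 and 10, 10 and 12, and 12 and 16 FOXA1 peaks, with T47D above MDA-MB-453 by 0.64 ± 0.18 (0.0359). The F test did not pass without scaling (0.175), without either MDA-MB-453 library (0.163 and 0.0673) or without SKBR3 replicate 2 (0.0579). TLE3 had 4 and 0, 3 and 8, and 6 and 8 peaks, so no site in MDA-MB-453. In T47D, TLE3 sites flanked the start, at chr3:186841555-186842213 outside the gene (82.5th percentile) and at chr3:186842866-186843620 inside it (87.4th), and SKBR3 replicate 1 had a peak at each place. PLIN1, which coats fat droplets, had 3 and 3, 5 and 7, and 4 and 4 FOXA1 peaks, with MDA-MB-453 at -1.41 ± 0.26 from SKBR3 (0.00331), a call lost without scaling (-0.88, F test 0.055). PLIN1 had a TLE3 site within 10 kb in MDA-MB-453, in T47D and in each SKBR3 replicate taken alone. No SKBR3 site within 10 kb was held by both replicates.

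**Figure D3:**
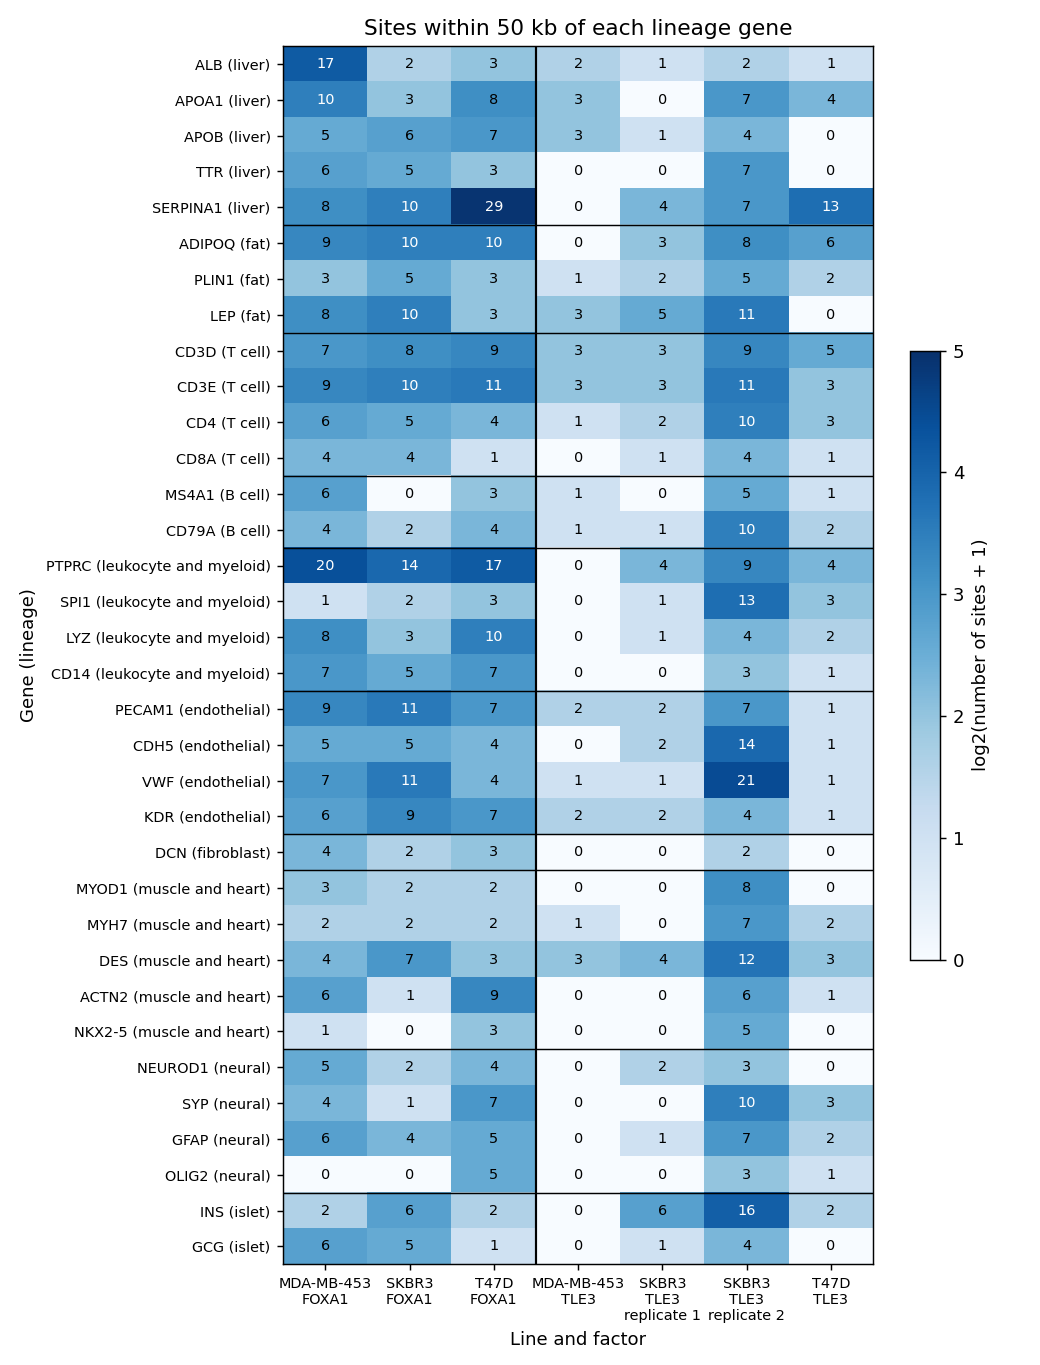
Number of FOXA1 sites (left 3 columns) and TLE3 sites (right 4 columns) within 50 kb of each lineage gene, with colour by log2 of the number plus 1. ALB stands out in MDA-MB-453 (17) and SERPINA1 in T47D (29 FOXA1 and 13 TLE3 sites), and the TLE3 column of MDA-MB-453 is at 0 for the leukocyte and myeloid, neural and islet genes.

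Of the 4 T cell genes, only CD8A passed the F test for FOXA1 (56.6% of all genes tested). CD3E and CD3D encode chains of the T cell receptor complex, lie side by side on chromosome 11 and share sites in their windows. CD3E (gene 916, chr11:118304730-118316173) had 10 and 12, 10 and 13, and 11 and 11 FOXA1 peaks, and CD3D 8 and 11, 8 and 9, and 9 and 10. Neither passed the F test (0.0592 and 0.303). TLE3 at CD3E was present in every list, with 3 and 3, 3 and 11, and 4 and 5 peaks. CD4, a coreceptor, had 12 and 6, 6 and 8, and 7 and 5 FOXA1 peaks (F test 0.211) in a window that also held 9 other protein-coding genes. CD8A, the coreceptor of cytotoxic T cells, had 6 and 6, 4 and 4, and 3 and 2 peaks, and T47D lay -0.95 ± 0.28 from MDA-MB-453 (0.0401) and -0.96 ± 0.28 from SKBR3 (0.0265). With the upper 50% of each list by score, that second value turned to 0.06, and the F test did not pass without either MDA-MB-453 library (0.0628 and 0.0869), SKBR3 replicate 1 (0.0579) or T47D replicate 2 (0.158).

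Of the B cell genes, MS4A1, which encodes the CD20 surface protein, had 8 and 6 FOXA1 peaks in MDA-MB-453, 1 and 2 in SKBR3 and 7 and 5 in T47D. SKBR3 was low, with MDA-MB-453 higher by 1.45 ± 0.32 (0.0072) and T47D by 1.42 ± 0.32 (0.00857); without MDA-MB-453 replicate 2 the F test gave 0.053. Its only TLE3 site within 10 kb, SKBR3 replicate 2 aside, lay in the gene body in MDA-MB-453 (chr11:60467944-60468421). CD79A, a signalling chain of the B cell receptor, had 7 and 4, 5 and 3, and 6 and 4 peaks (F test 0.933).

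Among leukocyte and myeloid genes, PTPRC, the pan-leukocyte phosphatase CD45 (gene 5788, chr1:198638713-198757476), had the most FOXA1 peaks of the group, and no difference between the lines passed the test once scaled. It had 27 and 23, 17 and 16, and 25 and 21 peaks, with T47D at 0.07 ± 0.13 from MDA-MB-453 and 0.07 ± 0.13 from SKBR3 (F test 0.844). PTPRC is also the longest gene of the group, at 118764 bp against 23688 bp for SPI1, the next longest. Its window was thus the largest, and peak numbers are not scaled to the window. The highest-scoring site lay inside the gene in each line, at the 98.0th, 99.9th and 98.6th percentile. TLE3 numbered 3 and 0, 4 and 9, and 4 and 6 peaks. SKBR3 replicate 1 and T47D each had 4 TLE3 sites in the gene body, one of them at chr1:198669194-198669412 and chr1:198669030-198669513, and MDA-MB-453 had none.

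The other myeloid genes had few TLE3 sites outside SKBR3 replicate 2. SPI1, the transcription factor PU.1, had 5 and 1, 4 and 4, and 5 and 3 FOXA1 peaks (F test 0.148), against TLE3 peaks of 0 and 1, 1 and 13, and 3 and 5. LYZ, which encodes lysozyme, had 10 and 9, 5 and 5, and 10 and 15 FOXA1 peaks, with T47D higher than SKBR3 by 0.84 ± 0.22 (0.0154). That call was lost in 5 of the 6 fits that left out a FOXA1 library, T47D replicate 1 excepted, with F test values from 0.0646 to 0.152. CD14, the lipopolysaccharide coreceptor, had 7 and 7, 5 and 7, and 9 and 7 peaks (F test 0.34). No leukocyte or myeloid gene of the 4 had a TLE3 site within 50 kb in MDA-MB-453 (55.3% of other genes), whereas all 4 had one in T47D (74.7%). Of the further leukocyte and myeloid genes, 2 of 3 had one in MDA-MB-453 and 3 of 3 in T47D. Counting T and B cell genes as well, 5 of 10 had one in MDA-MB-453 and 10 of 10 in T47D.

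Of the 4 endothelial genes, 3 passed the F test for FOXA1 (56.6% of all genes tested), each with the highest scaled level in SKBR3. VWF, von Willebrand factor (gene 7450, chr12:5948877-6124670), had 16 and 8 peaks in MDA-MB-453, 14 and 14 in SKBR3 and 4 and 6 in T47D. T47D lay below every other library, at -1.81 ± 0.26 from SKBR3 (0.00109) and -0.94 ± 0.26 from MDA-MB-453 (0.0305), although without scaling the value from SKBR3 was -1.42 and the F test gave 0.062. KDR, a receptor for vascular endothelial growth factor (gene 3791, chr4:55078481-55125595), had 9 and 6, 11 and 11, and 7 and 8 peaks, with MDA-MB-453 at -1.12 ± 0.18 from SKBR3 (0.00186) and T47D at -0.91 ± 0.18 (0.00521). Without scaling the KDR difference was -0.55 (F test 0.139). PECAM1, an adhesion molecule between endothelial cells, had 14 and 12, 13 and 13, and 10 and 9, and T47D lay -0.82 ± 0.15 from SKBR3 (0.00298), or -0.43 without scaling (F test 0.0646). CDH5, vascular cadherin, had 7 and 5, 5 and 7, and 4 and 5 (F test 0.0611).

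TLE3 peak numbers at endothelial genes differed between the SKBR3 libraries. All 4 genes had a site within 50 kb in T47D and in SKBR3 replicate 1, and 3 of 4 in MDA-MB-453. VWF had 2 and 1 TLE3 peaks in MDA-MB-453, 1 and 21 in SKBR3, and 1 and 3 in T47D. CDH5 had 2 and 0, 2 and 14, and 1 and 3. Replicate 2 of SKBR3 was thus far above the other 5 TLE3 libraries at both genes in peak numbers. These numbers are not scaled to list length, and replicate 2 held 94363 peaks against 21149 in replicate 1. PECAM1 had 2 and 7 TLE3 peaks in SKBR3 and KDR 2 and 4, smaller gaps between the replicates. A difference particular to endothelial genes was not tested.

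DCN, the fibroblast proteoglycan decorin, had 5 and 4, 2 and 2, and 5 and 8 FOXA1 peaks, with T47D higher than SKBR3 by 1.12 ± 0.29 (0.016), a call lost in 5 of the 6 fits that left out a library, T47D replicate 1 excepted (F test 0.0637 to 0.143). The 5 muscle and heart genes had few FOXA1 sites, with medians of 3 for MDA-MB-453, 2 for SKBR3 and 3 for T47D. Medians over the other protein-coding genes were 7, 4 and 6. For the 6 further muscle and heart genes they were 5, 5.5 and 4, above the other genes in SKBR3 only. The low numbers are thus those of these 5 genes, and a trait of the lineage was not tested. ACTN2, a protein of the sarcomere's Z disc (gene 88, chr1:236686499-236764631), had 9 and 6, 2 and 2, and 10 and 13 peaks. SKBR3 lay below the others, with T47D higher by 1.92 ± 0.24 (0.000559) and MDA-MB-453 by 1.13 ± 0.24 (0.00557). NKX2-5, a heart transcription factor with no other protein-coding gene in its window, had 2 and 1 peaks in MDA-MB-453, 0 and 0 in SKBR3 and 4 and 3 in T47D (F test 0.00094). MYOD1, the skeletal muscle regulator, had 4 and 4, 3 and 2, and 2 and 2 (F test 0.177). MYH7, a myosin heavy chain, had 4 and 3, 2 and 4, and 2 and 2 (0.171). DES, the muscle intermediate filament, had 9 and 5, 8 and 7, and 4 and 7 (0.0722). TLE3 sites within 10 kb occurred only at ACTN2 in T47D among these 5, SKBR3 replicate 2 aside.

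Of the 4 neural genes, 3 passed the F test (56.6% of all genes tested), 2 of them (OLIG2 and SYP) with most peaks in T47D. OLIG2, an oligodendrocyte transcription factor (gene 10215, chr21:33025935-33029185), had no FOXA1 peak in the 4 MDA-MB-453 and SKBR3 libraries and 6 and 6 in T47D (F test 0.000158). Its 5 T47D sites were thus in no other line, and 2 of them overlapped a TLE3 site of T47D. The highest-scoring one lay 41382 bp away, nearest to the neighbouring family member OLIG1. SYP, a synaptic vesicle protein, had 8 and 4, 1 and 3, and 10 and 9 peaks, with T47D higher than SKBR3 by 1.81 ± 0.4 (0.00824). The SYP call was lost without either MDA-MB-453 library or T47D replicate 1 (F test 0.0578, 0.0657 and 0.064). NEUROD1, a neuronal and islet transcription factor, had 8 and 7, 2 and 3, and 6 and 5 peaks, with MDA-MB-453 higher than SKBR3 by 0.91 ± 0.26 (0.0213). That value turned to -0.4 with the upper 50% of each list, and the call was lost in 4 fits that left out a library (either MDA-MB-453 library, SKBR3 replicate 1 or T47D replicate 1; F test 0.0593 to 0.134). GFAP, the astrocyte filament, had 6 and 7, 4 and 4, and 5 and 7 (F test 0.87). No neural gene of the 4 had a TLE3 site within 50 kb in MDA-MB-453 (55.3% of other genes), 2 had one in SKBR3 replicate 1 (57.3%) and 3 in T47D (74.7%). The further neural genes differed from these, with a TLE3 site at 5 of 5 in MDA-MB-453.

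Both islet genes passed the F test (56.6% of all genes tested). GCG, the glucagon gene, had 9 and 10, 7 and 5, and 2 and 4 FOXA1 peaks, and T47D lay -1.39 ± 0.34 from MDA-MB-453 (0.0198) and -1.31 ± 0.34 from SKBR3 (0.0158). The F test did not pass without either MDA-MB-453 library (0.0593 and 0.0908) or T47D replicate 1 (0.0825). INS, the insulin gene, had 4 and 2, 6 and 7, and 3 and 2, with T47D at -1.61 ± 0.32 (0.00465) and MDA-MB-453 at -1.6 ± 0.32 (0.00441) from SKBR3, the highest line, a call lost without scaling (F test 0.0751). TLE3 near INS numbered 1 and 0, 6 and 16, and 2 and 5 peaks. SKBR3 replicate 1 had 3 TLE3 sites within 10 kb and T47D had 1, all nearest to TH or INS-IGF2 and all of low rank (2.6th to 12.9th percentile). Neither gene had a TLE3 site within 50 kb in MDA-MB-453 (55.3% of other genes), where 3 of the 5 further islet genes had one.

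Sharing between the lines was close to that of FOXA1 regions at large. Near the 34 genes there were 319 FOXA1 regions, of which 78 (24.5%) had a site in all 3 lines and 160 (50.2%) in 1, against 22.2% and 52.4% of 196570 regions. Near luminal breast genes 35.5% of 386 regions were in all 3 lines. By lineage the share in all 3 lines ran from 41.4% of 29 regions near fat genes and 40.5% of 42 near endothelial genes to 7.14% of 28 near neural genes and 13.3% of 15 near islet genes. Regions near 1 gene share a neighbourhood, and these shares were not tested.

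**Figure D4:**
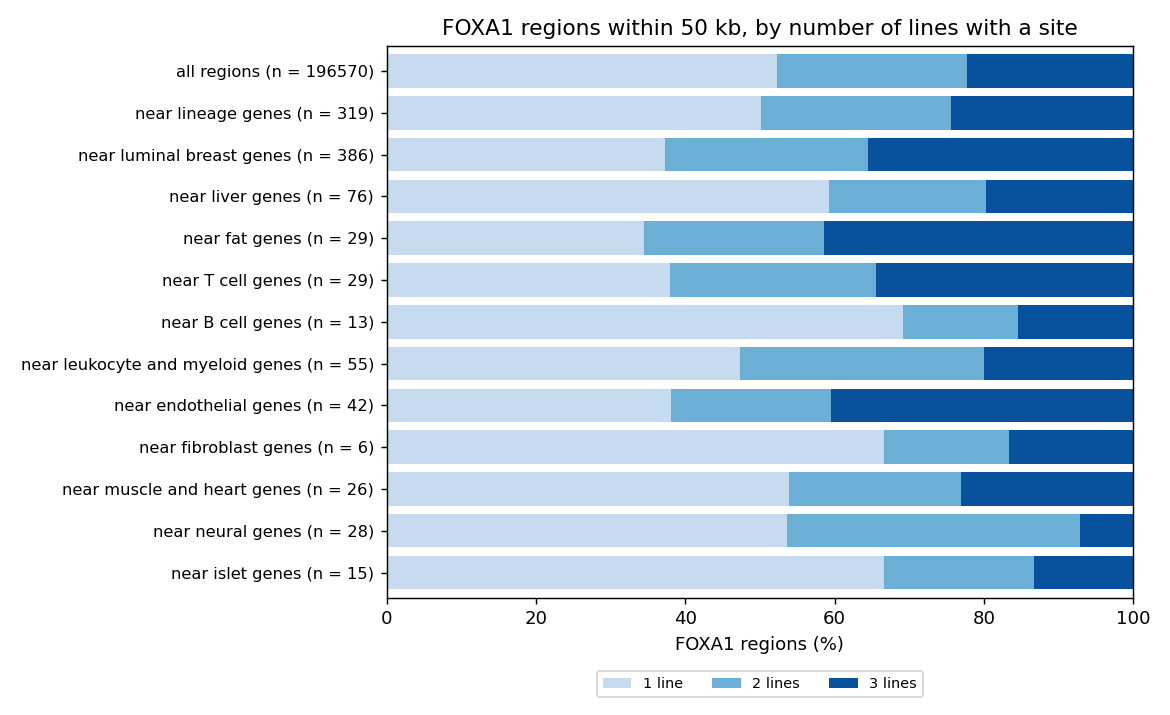
Percentage of FOXA1 regions within 50 kb that had a site in 1, 2 or 3 lines, for all regions, those near lineage genes, those near luminal breast genes and each lineage, with the number of regions in brackets. The dark segment is widest near fat genes (41.4%) and narrowest near neural genes (7.14%).

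For TLE3 in MDA-MB-453, SKBR3 replicate 1 and T47D, 99 regions lay near the 34 genes and 8 (8.08%) were in all 3 lines, against 13.5% of 47304 regions and 20.8% near luminal breast genes. All 8 had a FOXA1 peak in each of the 6 FOXA1 libraries, and 4 of the 8 (in the windows of PLIN1, CD3E, CD4 and KDR) had no TLE3 peak in SKBR3 replicate 2. The nearest protein-coding gene was a lineage gene for 3 of them. One lay in the CD3E gene body (chr11:118314877-118316190), with TLE3 percentiles of 94.2 and 73.8 in MDA-MB-453, 99.4 and 55.7 in SKBR3, and 99.2 and 99.6 in T47D. Another lay 5686 bp outside CD3E (chr11:118321522-118322196). The third lay in the KDR gene body (chr4:55122137-55122792), with percentiles of 94.9 and 90.6, then 89.7 in SKBR3 replicate 1 and no peak in replicate 2, then 92.2 and 97.1. The remaining 5 were in the windows of PLIN1 (nearest PEX11A), CD4 (nearest LAG3), CD79A (nearest ARHGEF1) and DES (2 regions, nearest DNPEP). The annotation used gives gene bodies without exons, so exon and intron are not told apart.

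Attribution by window is loose at these genes. The nearest protein-coding gene was a lineage gene for 51.5%, 58.2% and 55.1% of the FOXA1 sites within 50 kb in MDA-MB-453, SKBR3 and T47D. For TLE3 it was one for 48.1% in MDA-MB-453, 60.0% and 44.2% in SKBR3 replicates 1 and 2, and 42.4% in T47D.

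TLE3 sites near lineage genes mostly overlapped FOXA1, as TLE3 sites did at large. The overlap held for 26 of 27 sites in MDA-MB-453 (96.3%, against 99.3% of all TLE3 sites), 42 of 50 in SKBR3 replicate 1 (84.0% against 93.5%) and 54 of 66 in T47D (81.8% against 87.0%). In SKBR3 replicate 2 it held for 61 of 249 (24.5% against 21.7%). Read the other way, 24 of 202 FOXA1 sites near lineage genes carried TLE3 in MDA-MB-453 (11.9%, against 15.8% of all FOXA1 sites and 22.5% near luminal genes), 38 of 165 in SKBR3 with replicate 1 (23.0%, 20.9% and 28.8%) and 55 of 196 in T47D (28.1%, 21.9% and 41.7%). Within MDA-MB-453 none of the 36 FOXA1 sites near leukocyte and myeloid genes, 15 near neural genes and 8 near islet genes carried TLE3, although further genes of each of these lineages had TLE3 sites there, as given above. In T47D it was 8 of 37, 6 of 21 and 0 of 3. Liver genes in T47D had it at 16 of 50 sites, 12 of them near SERPINA1.

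The share of peaks near each gene was compared between TLE3 and FOXA1 with limma over all 12 libraries, with line as a covariate. Above FOXA1 were 4.25% of the 18986 genes tested and below it 1.47%; the median over all genes was -0.22. Of the 34, DES was above (1.25 ± 0.25, adjusted p 0.0142), with 3 and 3, 4 and 12, and 4 and 5 TLE3 peaks. TTR was below (-2.4 ± 0.65, 0.0467), with TLE3 peaks of 0 and 0, 0 and 7, and 0 and 0, so its fitted size depends on the 0.5 peaks added. The TTR call was lost in every fit that left out a library other than SKBR3 TLE3 replicate 2 (0.0664 to 0.118). Without scaling to list length the DES value was -0.45 and the median over all genes -1.58, so DES lay above that median under both. Without SKBR3 TLE3 replicate 2, genes above were 9.47% and below 14.9% of 18788, and the lineage genes called were CD3D, DES and PLIN1 above and ACTN2, CD14, DCN, GCG and TTR below. In that fit CD3D lay at 0.89 ± 0.25 (0.0229), PLIN1 at 0.98 ± 0.31 (0.0386) and TTR at -3.02 ± 0.35 (0.000376). The 2 DES regions of all 3 lines were nearest to DNPEP and lay 18641 and 49085 bp outside DES.

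Whether the TLE3 to FOXA1 difference itself differed between T47D and MDA-MB-453 was tested as an interaction over their 8 libraries. It passed for CD8A (3.4 ± 0.61, adjusted p 0.0221) and CD14 (3.17 ± 0.71, 0.0415), 2 of 34, against 10.2% of the 18878 genes tested, whose median was 0.54. CD8A had 0 and 0 TLE3 peaks in MDA-MB-453 and 1 and 1 in T47D, and CD14 had 0 and 0 against 1 and 5. Both sizes rest on these few peaks and on the 0.5 added. Without any one of the 4 FOXA1 libraries neither passed (CD8A 0.0796 to 0.107, CD14 0.131 to 0.181). Without MDA-MB-453 TLE3 replicate 1 the count was 12 lineage genes, and without either T47D TLE3 library 4. SERPINA1, which had far more TLE3 peaks in T47D than in MDA-MB-453, had more FOXA1 peaks there too, and its interaction was 2.53 ± 1.36 (0.309).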

How the data were processed

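Each of the 12 immunoprecipitated libraries has 1 deposited peak list with chromosome, start, end, name and the authors' score per peak. The tools were MACS2, SAMtools, BWA 0.7.5a and Trim Galore with the hg38 build, per the submitters' processing notes. How the caller was set, and which quantity the score holds, is not given in the sources used here. Peaks were called per library. Autosomes and X were kept, which left out 15 of 1134209 peaks. Groups follow the cell line and antibody target named in each title. Starts were made 1-based, peaks of both replicates overlapping by at least 1 bp were merged into sites, and the score of the deposited lists was used only as a percentile within a list.

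Gene bodies and promoters came from RefSeq tables of GRCh38.p14, the same build, and all 34 genes matched by symbol. The genes and lists were chosen with earlier results of these data known. Peaks per gene were scaled to list length, 0.5 was added, genes with a mean under 1 peak were left out, and limma 3.58.1 (R 4.3.3) with a trended prior was fitted over all remaining genes, with Benjamini-Hochberg adjustment and a threshold of 0.05. On simulated data the fit between lines called 1.5%, 92% and 100% of 200 genes changed 2-, 4- and 8-fold, and the fit between factors 9.5%, 86.5% and 100%. The simulated numbers were Poisson draws, and the changed genes were raised in T47D or in TLE3. Genes with few peaks were not among those changed, so these rates do not cover them. Values are given for every gene of the set: those with a TLE3 site within 10 kb, those called in a test, the highest and lowest of each lineage, and the rest by their peak numbers. Alternatives were other windows, priors, filters, scaling, score and overlap cuts, a replicate block and each library left out.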

Additional observations from a re-analysis of the deposited data

Results flagged for a closer look

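The difference between TLE3 and FOXA1 differed between T47D and MDA-MB-453 at 2 of the 34 genes by limma's interaction test, against 10.2% of all genes tested. At CD8A the log2 difference was 3.4, with 0 TLE3 peaks in both MDA-MB-453 libraries, 1 in each T47D library, and fewer FOXA1 peaks in T47D (3 and 2, against 6 and 6). At CD14 it was 3.17, with 0 TLE3 peaks in both MDA-MB-453 libraries and 1 and 5 in T47D, while FOXA1 peaks were 7 and 7 against 9 and 7. Neither call held without scaling to list length (CD8A 2.72, CD14 2.35), or without any one of the 4 FOXA1 libraries of these lines.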

How the results depend on the processing

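With the gene body alone, counts of lineage genes with a site were 17, 16 and 17 for FOXA1 in MDA-MB-453, SKBR3 and T47D, and for TLE3 5 in MDA-MB-453, 6 and 22 in SKBR3 replicates 1 and 2, and 9 in T47D. With 10 kb, TLE3 counts were 8, 12 (SKBR3 replicate 1) and 14, and with the nearest gene alone 7, 13 and 13. With lists held to 21149 peaks, FOXA1 counts were 15 in MDA-MB-453 and 21 in T47D. A peak of either replicate gave 26 for MDA-MB-453 TLE3, both replicates gave 12 for SKBR3 TLE3, and the upper 50% of each list gave 17 for T47D TLE3. Leaving out 1 library gave 17 to 24 for MDA-MB-453 TLE3. FOXA1 between lines called 6792 genes and 9 lineage genes at 10 kb, and 6559 to 9534 genes and 11 to 19 lineage genes without 1 library. TLE3 against FOXA1 called 1087 genes and 2 lineage genes, but 499 and 0 at 10 kb, 13675 and 20 without scaling (median over all genes -1.58), 314 and 1 with the upper 50%, 1 lineage gene with a prior of 1, and 410 to 4578 genes and 1 to 8 lineage genes without 1 library. The interaction called 1930 genes and 2 lineage genes, but 11 and 0 without scaling (median over all genes 0.95), 1 lineage gene with a prior of 1, 5 with the upper 50%, and 0 to 6015 genes and 0 to 12 lineage genes without 1 library. With a replicate block, the fits called 11086 genes and 23 lineage genes between lines, 854 and 1 between factors, and 696 and 0 for the interaction (adjusted p of 0.0556 for CD8A and 0.0807 for CD14). Deviations of same-numbered libraries correlated from -0.141 to 0.24 over 15 pairs of groups, with the highest value between SKBR3 TLE3 and T47D TLE3. The labels do not say whether same-numbered libraries share a culture or day, and these correlations cannot decide it. Signs reversed with the upper 50% of each list for CD8A (T47D against SKBR3, 0.06), NEUROD1 (MDA-MB-453 against SKBR3, -0.4) and CD14 (interaction, -0.27), and without scaling for DES (-0.45), which still lay above the median of all genes given above. The cause of these changes was not tested. Of 200 genes changed 2-fold in simulated data, 1.5% were called between lines, where few other genes changed. Differences in list length cannot be told apart from depth.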
